A study of Caenorhabditis elegans with 2 samples.

Results

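The genes of the DREAM complex of Caenorhabditis elegans were examined as places on chromatin recovered with a tagged form of the protein of Y48G9A.11. The 8 genes were lin-35, efl-1, dpl-1, lin-9, lin-37, lin-52, lin-53 and lin-54, out of 19973 protein-coding genes. They were chosen by name, with earlier results of these peak lists known, and their peaks were taken from the same lists. Their peak values are therefore given as a description, with no test. A peak was assigned to a gene when its summit, its highest point, lay from 1000 bp upstream to 200 bp downstream of the annotated 5' end (called the window here) or in the gene body.

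Chromatin immunoprecipitation followed by sequencing (ChIP-seq) was done on whole L4 larvae at 47.5 hours, from cultures that had been synchronised by starving L1 larvae hatched after bleaching. All animals were of strain RW12291, with the allele st12291[Y48G9A.11::TY1::EGFP::3xFLAG] on chromosome III, in which CRISPR had placed the tags at the endogenous gene. The tagged protein was pulled down with an antibody against GFP from chromatin sheared by sonication to 200 to 800 bp. There were 2 biological replicates of this 1 group and no second condition, so the data hold no contrast between genotypes, stages or treatments. Whole animals mix every tissue, so a strong peak in a few cells and a weaker one in many cannot be told apart.

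The DREAM complex joins LIN-35, the pocket protein of the retinoblastoma family, to the heterodimer of the E2F factor EFL-1 with its partner DPL-1, and to the MuvB core of LIN-9, LIN-37, LIN-52, LIN-53 and LIN-54. LIN-54 binds short DNA elements of the type TTTGAA or TTCGAA, and E2F heterodimers bind GC-rich elements such as GCGCGAA and GCGGGAA. In the worm the complex represses cell cycle and germline genes in somatic cells. Its genes belong to class B of the synMuv genes, which act redundantly with those of class A to restrain vulval fates. The first base of many worm transcripts is set by trans-splicing, so an annotated 5' end can lie downstream of the place where transcription starts.

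Of the 8 genes, 5 had a peak of the main list in their window. The main list is the thresholded list from both replicates together, with 2228 of 93610 candidate peaks. These 5 were lin-9, lin-54, lin-35, lin-53 and efl-1, with pooled signal values from 348.96 down to 88.55. The signal value is the height the authors' peak caller gave each peak on a scale that is not stated. The genes lin-37, lin-52 and dpl-1 had candidate peaks but none in the main list. Among the 12282 protein-coding genes with a candidate in the window, 9.97% had a main peak there. Nothing is read from this share for the 8 genes, because they were chosen with these peaks known.

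The DNA under the summits of lin-9, lin-54 and efl-1 is shown to place the searched words at called window peaks. All 3 hold at least 1 word, so they do not stand for every called peak: lin-35, also called, has none within 100 bp around its summit, and the DNA at lin-35 and lin-53 is not shown. Each stretch covers 81 bp centred on the summit of the pooled peak, on build ce11, read 5' to 3' on the strand of the gene, from the RefSeq genome of the same assembly. Capitals mark TTTGAA or GCGCGAA on either strand, so that TTCAAA and TTCGCGC are the same words read from the other strand.
lin-9, III:8904180-8904260, minus strand: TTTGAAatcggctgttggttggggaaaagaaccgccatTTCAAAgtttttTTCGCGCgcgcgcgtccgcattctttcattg
lin-54, IV:13240655-13240735, plus strand: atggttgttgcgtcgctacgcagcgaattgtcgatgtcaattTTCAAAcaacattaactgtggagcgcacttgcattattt
efl-1, V:16965749-16965829, minus strand: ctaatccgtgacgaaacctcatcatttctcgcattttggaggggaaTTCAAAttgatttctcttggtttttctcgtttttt

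Stretches without a searched word are shown for comparison, from the called peak in the body of efl-1 and from candidates of the 3 uncalled genes. For dpl-1 both the window candidate and the higher one in the body are given. The capitals mark the 11 bases centred on the summit. All of these summits lie in coding sequence except that of the dpl-1 window, which lies in an intron of T23G7.2.
efl-1 body, V:16964438-16964518, minus strand: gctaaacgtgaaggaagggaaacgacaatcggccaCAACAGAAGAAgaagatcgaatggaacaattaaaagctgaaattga
lin-37, III:7072457-7072537, minus strand: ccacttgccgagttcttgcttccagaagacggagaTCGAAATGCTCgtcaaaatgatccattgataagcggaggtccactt
lin-52, III:9824635-9824715, minus strand: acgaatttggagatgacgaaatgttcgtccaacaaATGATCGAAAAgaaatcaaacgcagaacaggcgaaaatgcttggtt
dpl-1 window, II:9169747-9169827, plus strand: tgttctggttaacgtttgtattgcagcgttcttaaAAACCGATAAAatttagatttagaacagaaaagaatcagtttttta
dpl-1 body, II:9171028-9171108, plus strand: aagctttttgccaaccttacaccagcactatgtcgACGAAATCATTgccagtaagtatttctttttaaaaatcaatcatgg

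LIN-35 is the pocket protein of the complex and the sole retinoblastoma family member of the worm. Its gene (WBGene00003020) lies on the plus strand of chromosome I from 5807709 to 5815637. The called peak spanned I:5807349-5807672, with its summit at -198 bp from the 5' end (negative distances are upstream), outside annotated protein-coding genes. Its signal was 156.52 in the pooled list, 87.88 in replicate 1 and 68.95 in replicate 2. The pooled peak stood at rank 789 of the main list. Only replicate 1 listed it by itself: its score in replicate 2 was 766, under the lowest listed score of 830. That score corresponds to an irreproducible discovery rate (IDR) of 0.01, a measure of how well the rank of a peak repeats between compared lists. The summit also lies at -220 bp from the 5' end of vps-51, which is read in the opposite direction and encodes a subunit of a vesicle tethering complex. The gene held 10 further candidates along its body, with signals from 58.56 down to 3.33, none of which was listed.

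EFL-1 is the E2F factor that pairs with DPL-1. Its gene (WBGene00001161) lies on the minus strand of chromosome V from 16958590 to 16965675, and it was the 1 member with a main peak in its body as well as in its window. The window peak, V:16965627-16965950, had its summit at -114 bp. Its signal was 88.55 in the pooled list, 37.97 in replicate 1 and 43.30 in replicate 2. The body peak, V:16964316-16964639, had its summit in a coding exon 1197 bp downstream of the 5' end. Its signal was 78.55 in the pooled list, 38.03 in replicate 1 and 45.23 in replicate 2. Both peaks were near the lower end of the main list, at ranks 2044 and 2105, and neither replicate listed either of them by itself.

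The efl-1 peaks were the members' peaks closest to the threshold. Their scores were 831 in the window and 845 in the body, just inside the lowest listed score. Just outside it were a candidate in an intron of lin-9, with a score of 748, the body candidate of dpl-1 with 652 and the window candidate of lin-52 with 626. In the ranking behind the conservative list, a second pooled list of 2171 peaks, the efl-1 scores were 628 and 658, and neither peak was listed. The nearest upstream gene, fbxa-90 of the F-box family, begins 1138 bp away in the opposite direction. The window summit of efl-1 lies at -1025 bp from the 5' end of fbxa-90, just outside its window.

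DPL-1 is the DP partner of EFL-1, and its gene had no listed peak. The gene (WBGene00001061) lies on the plus strand of chromosome II from 9169910 to 9172565, wholly inside T23G7.2, which runs the other way. Its window held 1 candidate, with a pooled signal of 40.64 at -123 bp, in an intron of T23G7.2. Neither replicate had a candidate summit within 150 bp of it. Elsewhere in the window, replicate 1 had a candidate of 30.38 at -276 bp and replicate 2 one of 25.36 at 165 bp, neither listed. The highest candidate of the gene was in a coding exon at 1158 bp, with a signal of 85.62 in the pooled list, 43.58 in replicate 1 and 39.32 in replicate 2. Its IDR was 0.0268, against 0.00996 for the window peak of efl-1, whose signal of 88.55 was little higher.

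LIN-9 is the MuvB subunit after which the human LIN9 protein is named, and its gene carried the highest peak of the 8. The gene (WBGene00002998) lies on the minus strand of chromosome III from 8900237 to 8904131. The peak was narrow in the pooled list, 139 bp at III:8904189-8904327, with a summit at -89 bp from the 5' end. Of main peaks, 14.9% were narrower than the commonest width of 324 bp. In the replicates the lin-9 peak spanned 290 and 300 bp. Its signal was 348.96 in the pooled list, 159.39 in replicate 1 and 181.24 in replicate 2. All 3 values were within thresholded lists, and 91.1% of main peaks had the same signal or less. The replicates' summits lay 3 bp apart, at -86 and -89 bp. The next gene upstream, unc-32, which encodes a subunit of the vacuolar ATPase, lies 1483 bp away and had no main peak in its window.

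LIN-54 is the DNA-binding subunit of MuvB. Its gene (WBGene00003037) lies on the plus strand of chromosome IV from 13241044 to 13243401. The peak, IV:13240622-13240759, had a signal of 271.13 in the pooled list, 123.74 in replicate 1 and 146.73 in replicate 2. It was listed in both replicates, whose summits lay 4 bp apart, at -373 and -369 bp from the 5' end of lin-54. The pooled summit was at -349 bp from the 5' end of lin-54 and at -44 bp from that of rpl-12. The gene rpl-12 encodes a ribosomal protein of the large subunit and is read in the opposite direction. The nearest 5' end is thus that of rpl-12, and the lists give no way to divide the signal between the 2 genes.

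LIN-53 is a histone-binding WD40 protein of the RbAp48 type that also serves in other chromatin complexes. Its gene (WBGene00003036) lies on the minus strand of chromosome I from 9618196 to 9619760. The peak, I:9619843-9620166, had a signal of 132.23 in the pooled list, 55.41 in replicate 1 and 85.27 in replicate 2. Replicate 2 listed it by itself with a score of 956. In replicate 1 the score was 719 and the peak was not listed. The summit lay at -245 bp from the 5' end of lin-53 and at -222 bp from that of nra-2, which is read the other way and encodes a nicalin-type membrane protein. Downstream of lin-53 lies its close paralog rba-1, whose highest candidate in the window, 51.37, was a summit inside lin-53 and was not listed.

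LIN-37 and LIN-52 are further MuvB subunits, of which LIN-52 links the core to the pocket protein. The gene lin-37 (WBGene00003022) lies on the minus strand of chromosome III from 7070890 to 7072552, and its highest candidate was in a coding exon 55 bp downstream of the 5' end. That candidate had a signal of 75.27 in the pooled list, 44.27 in replicate 1 and 42.47 in replicate 2. The gene lin-52 (WBGene00003035) lies on the same strand from 9824083 to 9824750. Its highest candidate, in a coding exon 75 bp downstream, had a signal of 86.16 in the pooled list, 43.79 in replicate 1 and 35.35 in replicate 2. A shorter transcript of lin-52 begins further in, and the same summit lies at -105 bp from that start. Each of these genes follows a neighbour on its own strand closely, ZK418.5 at 60 bp and ZK632.9 at 126 bp, and neither neighbour had a main peak in its window.

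**Figure D1:**
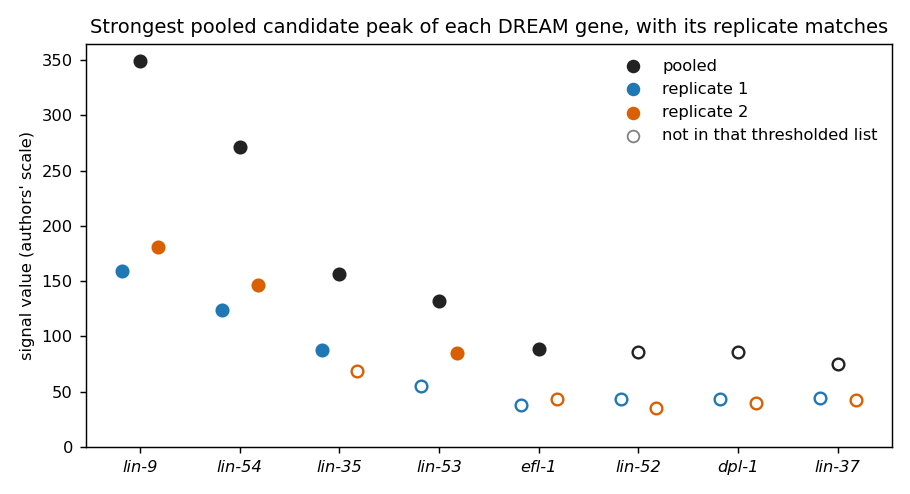
Signal value of the strongest pooled candidate peak of each gene (vertical axis, authors' scale) in the pooled list (black), and of the candidate that matches it in replicate 1 (blue) and replicate 2 (orange). Filled points are peaks in the thresholded list of that kind, open points are candidates alone; lin-9 and lin-54 are filled in all 3, and the pooled values run from 348.96 for lin-9 to 75.27 for lin-37.

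The 8 genes fell into the same broad order in both replicates. Signals from the replicates' lists were compared in place of pooled ones, since pooled signals were about the sum of the replicates' (median ratio 0.998 over 2095 main peaks). Means and overlaps were taken over the values of both replicates. The means over the replicates were 170.3 ± 15.4 for lin-9, 135.2 ± 16.3 for lin-54, 78.4 ± 13.4 for lin-35 and 70.3 ± 21.1 for lin-53 (SD, n = 2 each). The values of lin-9, lin-54 and the pair of lin-35 and lin-53 did not overlap. Those of lin-35 and lin-53 did, and their order was opposite in the replicates. For the strongest pooled candidates of efl-1, lin-37, lin-52 and dpl-1, the matching replicate candidates were all between 35.35 and 44.27, below both values of lin-53, and overlapped each other. In replicate 2 the highest candidate of lin-37 was another one, with 46.34 at 1008 bp, and that of efl-1 was in its body, with 45.23. In replicate 1 the highest of efl-1 was also another one, with 43.13 at 2253 bp.

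The replicates differed most for lin-53, where replicate 2 was 1.54 times replicate 1, and for lin-35, where it was 0.785 times. Over the main peaks with a candidate in each replicate, 90% of such ratios lay between 0.594 and 1.93, with a median of 1.05. Both genes were within that range. Distances between the replicates' summits at the 5 called window peaks were 3 to 32 bp, against a median of 22 bp over main peaks. The body peak of efl-1 had its replicate summits 93 bp apart, and 95% of main peaks had them within 96 bp.

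**Figure D2:**
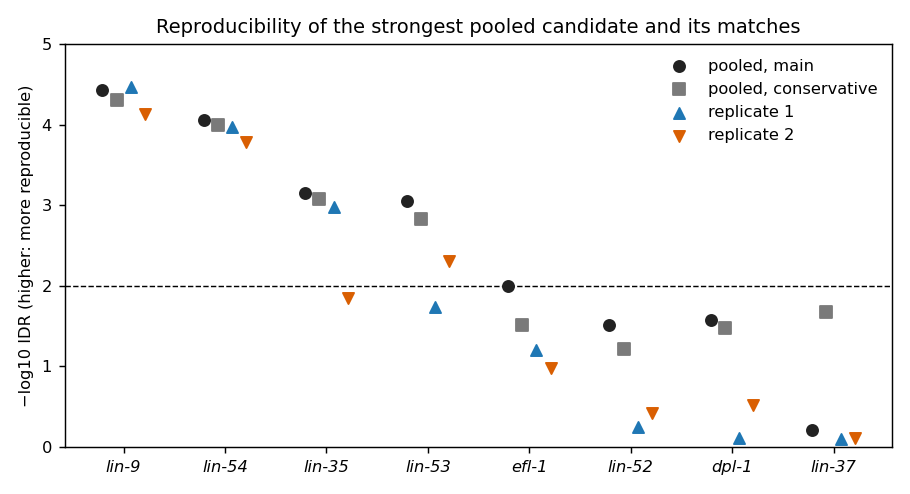
Negative log10 of the IDR (vertical axis, higher values repeat better) of the strongest pooled candidate of each gene, and its match in the other lists, in the main pooled ranking (circles), the ranking behind the conservative list (squares) and the rankings of replicate 1 (upward triangles) and replicate 2 (downward triangles). The dashed line is an IDR of 0.01, the limit of the thresholded lists; the points of lin-9 and lin-54 all lie above it, and efl-1 touches it in the main pooled ranking alone.

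By list, the count of members with a window peak fell from 5 in the main list to 4 in the conservative list, 3 in each replicate's own list and 2 in both replicates' lists. The conservative list left out efl-1, and 9.77% of the protein-coding genes with a candidate were called in it. Replicate 1 listed lin-35, lin-54 and lin-9, with 6.94% of all such genes called. Replicate 2 listed lin-53, lin-54 and lin-9, with 6.51% called. The genes in the lists of both replicates were lin-9 and lin-54, with 5.10% of all such genes called. Each replicate's list was shorter than the pooled ones, at 1358 peaks for replicate 1 and 1200 for replicate 2.

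Candidates of like signal could differ in IDR, and not in the same way in both pooled rankings. The candidates of lin-37, with 75.27, and of efl-1 in the body, with 78.55, had IDRs of 0.617 and 0.00918 in the main pooled ranking. In the ranking behind the conservative list their values were closer and in the opposite order, at 0.0211 and 0.0259. For lin-37 the replicates' signals were nearly equal and their summits 3 bp apart. Of all pooled candidates with a signal from 75 to 90, a band set after these values were seen, 86 of 2634 (3.26%) were in the main list. The members had 6 candidates in that band, and 2 were listed, both of efl-1. From a signal of 120 to 160, which holds lin-35 and lin-53, 94.9% of candidates were listed, and above 160 the share was 95.8%.

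**Figure D3:**
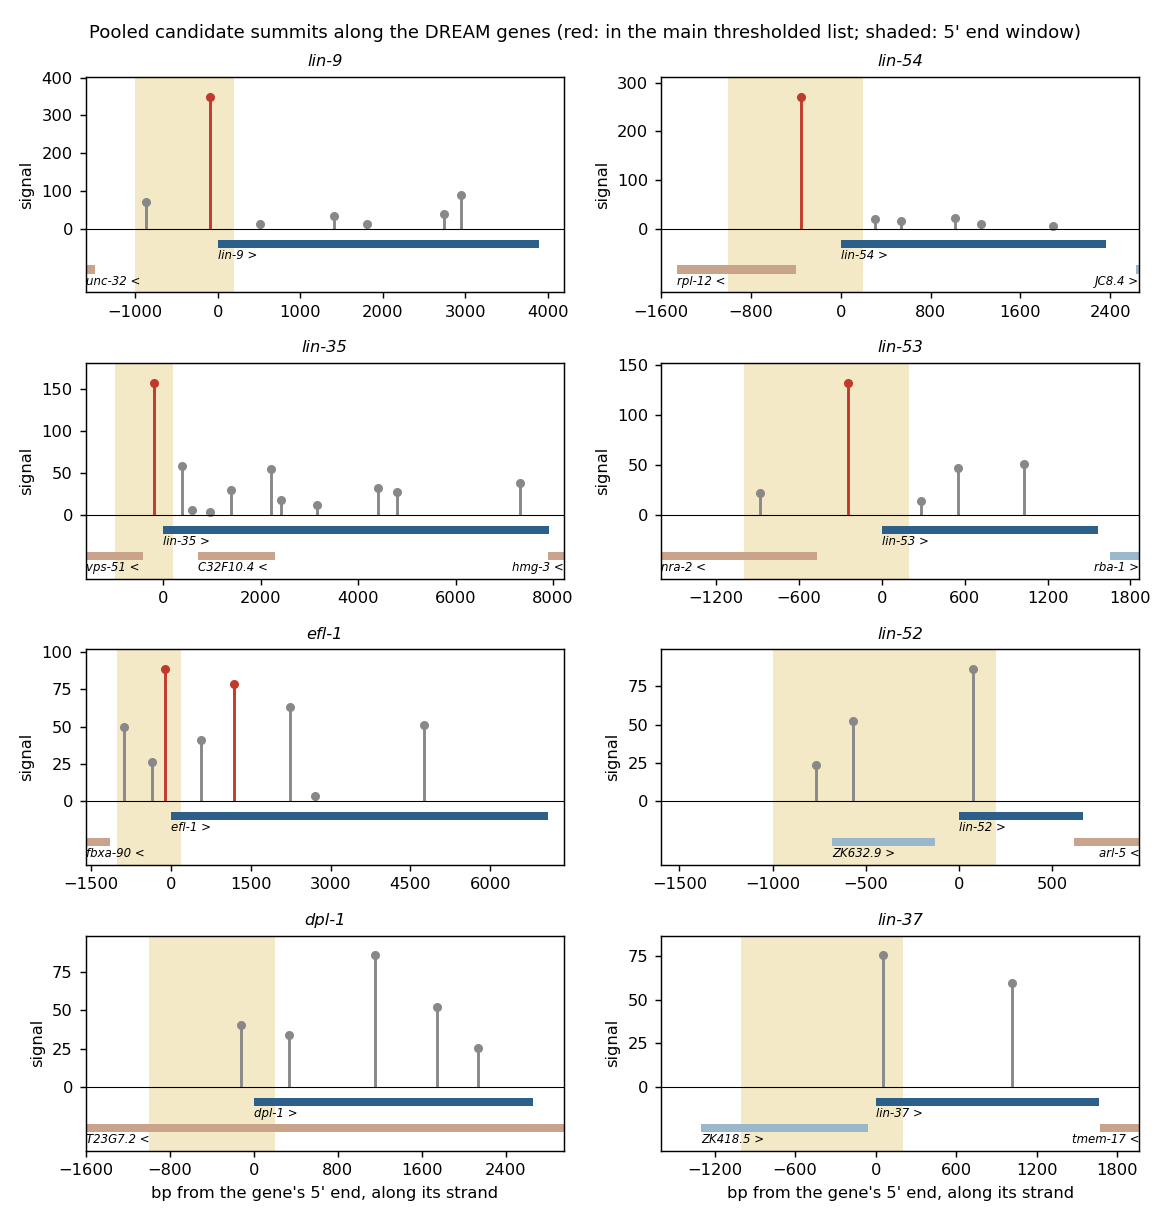
Summits of all pooled candidate peaks in the window or body of each gene (vertical lines, height is the signal value; the scale differs between panels), against distance in bp from the gene's 5' end along its strand. Red marks peaks of the main list, shading the window, dark blue the gene, and pale bars neighbouring protein-coding genes on the same (blue) or opposite (brown) strand. The called peaks of lin-9, lin-54, lin-35 and lin-53 each stand above all other candidates of their gene, and efl-1 has a second called summit 1197 bp into the gene.

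At 4 of the 5 called genes the window peak stood well above all other candidates in the gene. For lin-54 the next candidate in the window or body was 20.98 beside 271.13, and for lin-9 it was 88.62 beside 348.96. For lin-35 it was 58.56 beside 156.52, and for lin-53 it was 51.37 beside 132.23. In efl-1 the second candidate, at 78.55, was close to the first, and the next followed with 63.30 at 2242 bp into the gene. Gene bodies held a main peak in 6.42% of 13405 protein-coding genes with a candidate there, and in 1 of the 8 genes. Long genes held them more often: 403 of 3351 genes in the longest of 4 groups of about equal size by length had one, against 128 of 3352 in the shortest. The median length in the longest group was 7084 bp. The length of efl-1 is 7086 bp and that of lin-35, which had no body peak, is 7929 bp.

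The 5 called window peaks were all upstream of the 5' end, from -349 to -89 bp. Of all 1225 called protein-coding genes, 1103 had their highest window peak upstream, and over all called genes that peak had a median offset of -247 bp and quartiles of -466 and -122 bp. Of the 3 uncalled genes, dpl-1 had its highest window candidate at -123 bp, within the span of the called ones. Those of lin-37 and lin-52 were at 55 and 75 bp, although the lin-52 summit is at -105 bp from its shorter transcript. Peaks shared with a neighbour's window were found at 3 of the 5, lin-54, lin-35 and lin-53, against 49.2% of all called genes. The summit was nearest to the gene's own 5' end at lin-9, lin-35 and efl-1, and for 72.9% of all called genes. A gene listed in neither replicate's own list, as efl-1 was, made up 21.3% of called genes.

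The words of LIN-54 and E2F elements were searched on both strands. The LIN-54 words were TTTGAA and TTCGAA, the second of which reads the same on both strands. The E2F words were GCGCGAA and GCGGGAA, and no word overlaps another in the stretches shown above. Within 100 bp around the summit, TTTGAA was found at lin-9, lin-54, lin-53 and efl-1 and not at lin-35, and in 432 of all 2228 main peaks (19.4%). It was placed on the pooled summit itself at lin-9, 4 bp downstream of it at lin-54 and 8 bp downstream at efl-1, as in the stretches shown above. At lin-53 the word lay further off, at -34 bp from the summit, and lin-9 had another copy at -38 bp. The replicates' summits lay further from the word at lin-54 (-373 and -369 bp, pooled -349 bp) and at efl-1 (-118 and -129 bp, pooled -114 bp). GCGCGAA was found 13 bp downstream of the summit at lin-9, and in 4.17% of main peaks. Within 100 bp, TTCGAA (7.81% of main peaks) and GCGGGAA (3.59%) were found at none of the 8.

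At least 1 of the 4 words was present at 4 of the 5 called window summits, against 30.4% of main peaks. None was present at the highest window candidates of lin-37, lin-52 and dpl-1, nor in the stretch shown for the called body peak of efl-1. No share was taken over unlisted candidates, so no difference between called and uncalled summits is read from these counts. With 200 bp around the summit, 52.3% of main peaks had 1 or more, and GCGCGAA was also found at lin-54, 64 bp downstream of its summit, and TTCGAA at lin-52. Independently of any peak, the stretch from 250 bp upstream to 50 bp downstream of the 5' end held TTTGAA in 62.5% of all protein-coding genes and in 6 of the 8, all but lin-35 and lin-52. There GCGCGAA was rarer, at 1.92% of genes, and lin-9 had it. GCGGGAA, at 3.22%, was found at lin-53 and efl-1, and TTCGAA, at 18.2%, at lin-37. These matches describe letters and are not evidence of a bound factor. The GC content of 101 bp at the called window summits was 36.6% to 54.5%, within the range of 90% of main peaks (30.7% to 59.4%).

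Other genes of the E2F and retinoblastoma pathway, the synMuv classes, mitosis and DNA replication were read from 6 lists. The lists were chosen by function with earlier results known. Outside the DREAM genes, 64 of 70 listed genes had a candidate in the window and 12 of those (18.75%) a main peak, against the 9.97% of all protein-coding genes given above. Of 10 other E2F and retinoblastoma pathway regulators with a candidate, 0 were called in the window. This is a count in a thresholded list, and no test was made. The highest of them were the cyclin E gene cye-1 with a signal of 95.88 and the CDK inhibitor genes cki-2 with 76.50 and cki-1 with 64.18. Counts of called genes in the 6 lists refer to the window. In the gene body, 1 gene each of the other E2F, synMuv B, synMuv A, synMuv C and replication lists had a main peak. For mitotic regulators that count was 0. Over all protein-coding genes with a candidate in the body, 6.42% had one.

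Among 12 other synMuv B genes with a candidate, 1 was called, lin-13, a zinc finger protein gene, with 97.21 at -794 bp. The candidate of lin-61, which encodes a protein with MBT repeats, had 99.41 and that of lin-36 had 95.27, and neither was listed. The highest candidate of bub-1, a mitotic regulator on the same chromosome as lin-61, had the identical signal of 99.41, so that value enters both lists. None of 4 synMuv A genes was called in the window, where lin-8 (77.72), lin-56 (50.84) and lin-38 (48.32) were highest. Of 4 synMuv C genes, whose products belong to a Tip60-type acetyltransferase complex, epc-1 was called with 160.17 at -203 bp and listed in both replicates. Its summit also lay in the windows of Y111B2A.34, whose 5' end is nearer, and Y111B2A.12. The candidates of ssl-1 (77.89) and mys-1 (54.52) were not listed.

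Of genes with a candidate, mitotic regulators had a main peak at 6 of 16 and DNA replication genes at 4 of 18. The share over all protein-coding genes with a candidate was 9.97%. Both lists were chosen by function, and whether DREAM controls their genes was not tested. The highest mitotic ones were cyb-1, a cyclin B gene, with 341.27, air-1, the Aurora A kinase gene, with 267.63 and emb-27, a subunit gene of the anaphase promoting complex, with 234.20. These summits also lay in the windows of orc-5, cogc-6 and rrf-3 in that order, each nearer to that neighbour's 5' end, and that of air-1 also in the window of K07C11.11. The other called ones were cyb-2.2, cyb-3, whose summit also lay in the window of T06E6.1, and cdk-1. The highest of the replication genes was rpa-2, a subunit gene of the single-strand binding protein RPA, with 617.65. It was followed by pcn-1, the sliding clamp gene, with 346.78 and the helicase subunit gene mcm-2 with 285.33, and rpa-1 was also called. The summit of rpa-2 also lay in the window of the lincRNA gene M04F3.7 and that of rpa-1 in the window of F18A1.7, each nearer to that gene's 5' end than to the replication gene's. The pooled signal of lin-9 (348.96) was thus close to that of pcn-1 and cyb-1.

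**Figure D4:**
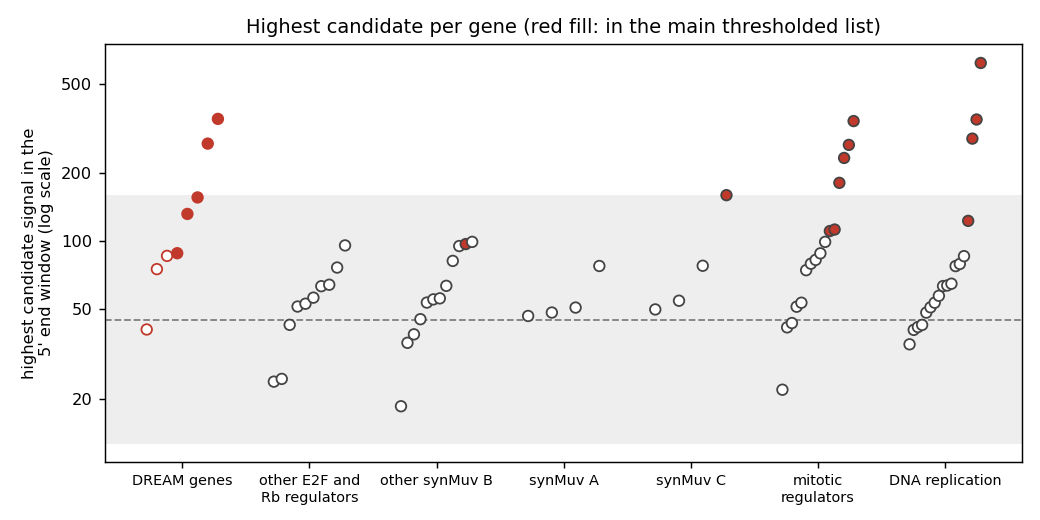
Highest pooled candidate signal in the window for each gene of 7 lists (vertical axis, log scale), with the 8 DREAM genes at the left; points filled in red are genes with a peak of the main list. The dashed line is the median over all 12282 protein-coding genes with a candidate (44.6) and the grey band holds 90% of them; 5 DREAM genes, 6 mitotic regulators and 4 replication genes are filled.

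As medians of the highest candidate in the window, the DREAM genes had 110.4 (range 40.6 to 349.0), mitotic regulators 85.6, synMuv C genes 66.2 and replication genes 63.5. The medians were 55.6 for other synMuv B genes, 54.6 for other E2F and retinoblastoma regulators and 49.6 for synMuv A genes, beside 44.6 for all protein-coding genes with a candidate. These are descriptions of lists of unequal size, of which the DREAM list was chosen on these values. The tagged gene itself, Y48G9A.11, had 1 main peak in its window or body, 819 bp inside the gene, with a pooled signal of 118.37. It was listed in replicate 2 and not in replicate 1, where its score was 804.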

How the data were processed

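The authors deposited peak lists on build ce11 for each replicate and for both together: ranked candidates, thresholded lists and a conservative thresholded list. Of the deposited columns, the signal value, the score, the summit and, in ranked lists, the −log10 IDR were used. No aligner, peak caller or scale is given in the sources used here. Sequencing depth is unknown, since no read counts were used, and no confidence interval was computed. All 2228 main peaks were found in 1 pooled ranking and all 2171 conservative peaks in the other.

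The members and all gene lists were chosen with earlier results of these data known. Genes came from Ensembl release 115 of WBcel235, whose chromosomes are those of ce11, and sequence from the RefSeq genome of that assembly. A pooled peak was paired with the nearest replicate candidate within 150 bp. Words were searched in 100 or 200 bp around the summit and in promoters. Named were all members, the tagged gene, genes sharing a member's summit and, per related list, up to 3 genes with the highest signal. Other names were added after their values were seen. No test was made, since there is 1 group and the members were chosen on these peaks; background shares stand in its place. Alternatives were the conservative list, each replicate's list, the stronger 50% of peaks, windows of 500 and 2000 bp, 5' ends of any transcript and the nearest 5' end alone. Summit assignment was tested on simulated peaks. Python 3.11.15, numpy 2.4.6, pandas 2.3.3 and matplotlib 3.10.9 were used.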

Additional observations from a re-analysis of the deposited data

How the results depend on the processing

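The 5 members with a main peak in the window became 3 in the stronger 50% of peaks (lin-9, lin-54 and lin-35), 3 when only the gene with the nearest 5' end could take a peak (lin-9, lin-35 and efl-1) and 3 with each replicate left out in turn. They were 4 in the conservative list and 5 with windows of 500 or 2000 bp or with the 5' end of any transcript. The genes lin-9 and lin-54 were listed in both replicates at all 3 windows. The 1 member with a body peak, efl-1, became 0 in the conservative list and 0 with either replicate left out. The count of 12 called genes in the related lists was 8 to 15 under 6 alternatives that were added after seeing the data. At 200 bp around the summit, 4 of the 5 called window summits held a searched word, as at 100 bp. The share of main peaks with a word rose from 30.4% to 52.3%, and the uncalled lin-52 also held one at 200 bp. No paired analysis was possible because there is 1 group and no test. The calls of efl-1 rest on the pooled list alone, and those of lin-35 and lin-53 on 1 replicate each beside the pooled lists. The members without a listed peak, lin-37, lin-52 and dpl-1, had candidates that missed the IDR limit of the main list. Depth is unknown, and a gene without a listed peak is not shown to be unbound.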
